A study of Caenorhabditis elegans with 4 samples.

Results

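The 38 body wall muscle structural genes described here were listed by name and located in the Ensembl annotation of the WBcel235 assembly, in which all 38 were found among 19973 nuclear protein-coding genes. UNC-39 occupancy was measured by chromatin immunoprecipitation and sequencing (ChIP-seq) in whole Caenorhabditis elegans L3 larvae, males and females pooled. UNC-39 is a homeodomain protein of the sine oculis homeobox family. The worms were of strain OP186, which has an unc-119(ed3) III background and the transgene wgIs186, from which UNC-39 is made with a GFP-FLAG tag at its C terminus. The labels name the antibody as unc-39 and do not say whether the tag or the protein itself was precipitated, so tagged and endogenous UNC-39 cannot be told apart. There were 4 biological replicates of this 1 group, and no second genotype, stage or treatment. Whole worms were used, so peaks from muscle nuclei and from all other nuclei cannot be told apart.

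Body wall muscle of the worm is obliquely striated, and its contraction comes from thick filaments of myosin and paramyosin sliding past thin filaments of actin, tropomyosin and troponin. Thick filaments are anchored at M-lines and thin filaments at dense bodies. Both are integrin adhesions that tie the contractile apparatus through the basement membrane to the epidermis and cuticle. Loss of some of their parts leaves the embryo paralysed and arrested in elongation, from which the pat genes take their name. Proteins of this family are known as regulators of muscle development in vertebrates, and unc-39 is known in the worm for roles in mesoderm and in cell migration.

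Each gene was searched from 2000 bp upstream of its start to its end, and the peak summits in that window were counted in the pooled list and in the list of each replicate. These are relaxed lists, deposited as peaks together with background, so a peak in them is a ranked place and not a called binding site. The pooled list held 12773 nuclear peaks, and the lists of replicates 1 to 4 held 29976, 29980, 13195 and 29501. The list of replicate 3 was shorter than the others and had a q-value under 0.05 for 100% of its nuclear peaks by the deposited column, against 0.357%, 0% and 26.2% in replicates 1, 2 and 4 and 0.352% in the pooled list. Signal, the authors' own value for each peak, was therefore used only as a percentile within a list, in which 100 is the strongest nuclear peak. A longer list or a longer window gives more chances of a peak, so the main counts are given beside the same counts over all nuclear protein-coding genes.

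Most of the muscle genes had a peak in their window, and none of these peaks was in the reproducible list. A pooled peak was found in 27 of the 38 genes (71.1%), against 44.8% of all nuclear protein-coding genes. In replicates 1 to 4 the numbers were 36, 34, 29 and 33 of 38, beside 73.3%, 74.0%, 45.3% and 71.2% of all genes. All 4 replicates had a peak in the window of 25 of 38 genes, beside 27.0% of all genes, a share not taken by window length. A peak of the thresholded, reproducible list was found in 0 of 38 genes, where 0.436% of all genes had one. The 27 strongest pooled peaks had a median percentile of 78.9, from 3.66 for mup-2 to 98.9 for act-4, where all genes with a pooled peak had a median of 59.1. By the deposited column, none of the 88 pooled peaks in these windows had a q-value under 0.05. Over all genes 50 of 14209 had one, a peak being counted once per window, so few were to be had in any set. The lowest q-value among the strongest peaks was 0.215, at act-4.

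The differences from all genes were smaller among genes of like length. The windows of the muscle genes had a median of 7010 bp and those of all genes one of 4027 bp. Among windows of up to 5000 bp, 7 of 14 muscle genes (50%) had a pooled peak, against 36.1% of 13546 genes. In replicates 1 to 4 it was 12, 10, 7 and 10 of 14, against 66.3%, 66.9%, 36.2% and 63.0%. Short muscle genes were thus above all short genes in each list, but in replicates 2 and 4 by little. The share there was 71.4%, against 66.9% and 63.0%. The count of replicate 4 also includes act-1 and act-2, whose only peak in that list was the same one. Among windows of 5000 to 10000 bp it was 10 of 14 (71.4%) against 58.6%, among those of 10000 to 20000 bp 4 of 4 against 75.2%, and among those over 20000 bp 6 of 6 against 92.0%. In replicates 1 to 4 the middle class (5000 to 10000 bp) gave 14, 14, 12 and 13 of 14, against 85.7%, 86.8%, 59.3% and 85.7%. All 10 of the longer muscle genes had a peak in every replicate, where all genes gave 94.5%, 96.3%, 79.3% and 96.9% for 10000 to 20000 bp and 99.2%, 99.6%, 95.4% and 99.6% over 20000 bp, so little room was left for a difference. The median percentile of the strongest pooled peak was 58.4 in muscle genes and 55.1 in all genes for the shortest windows, and 86.8 and 80.7 for the longest. In the shortest windows the replicates gave 51.4, 76.8, 29.6 and 53.3 in muscle genes and 63.0, 63.2, 56.0 and 62.3 in all genes, so the short muscle genes ranked lower in replicates 1, 3 and 4. In the pooled list each difference, in share and in percentile, was smaller within a length class than over all genes. The members are not replicates of a condition, and no test was made over them.

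**Figure D1:**
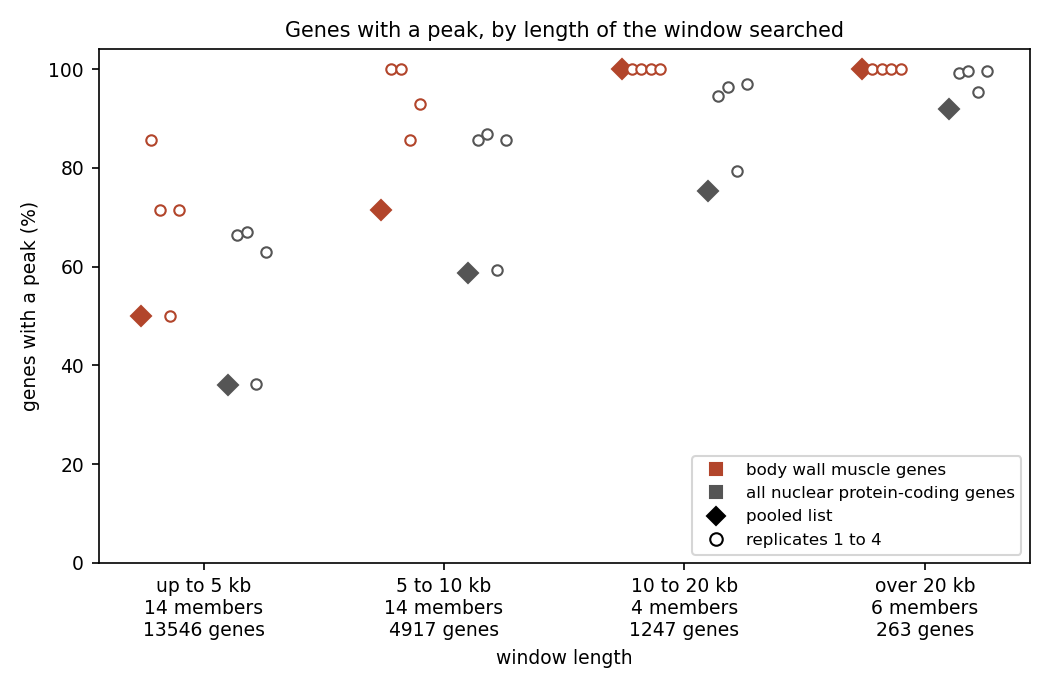
Share of genes with a peak (vertical axis, percent) by length of the window searched, for the 38 body wall muscle genes (red, left in each class) and all 19973 nuclear protein-coding genes (grey, right). Diamonds are the pooled list and open circles replicates 1 to 4; among windows up to 5 kb the pooled shares were 50% and 36.1%, and over 20 kb they were 100% and 92.0%.

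Peak density, which takes the length of the window into account, was also somewhat higher in the muscle genes. With windows merged so that a shared peak counted once, they held 88 pooled peaks in 497149 bp, or 1.77 per 10 kb, against 1.35 per 10 kb for the windows of all genes. In replicate 1 the density was 4.51 per 10 kb in muscle genes and 3.15 in all genes, and in replicate 2 it was 3.76 and 3.14. In replicate 3 it was 1.53 and 1.36, and in replicate 4 it was 3.18 and 3.03. The muscle genes were thus above all genes in 4 of 4 replicates, by a margin that was small in replicates 3 and 4. In windows over 20000 bp of replicates 3 and 4 the order was the other way, with 1.18 and 2.99 per 10 kb in muscle genes against 1.44 and 3.16 in all genes.

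**Figure D2:**
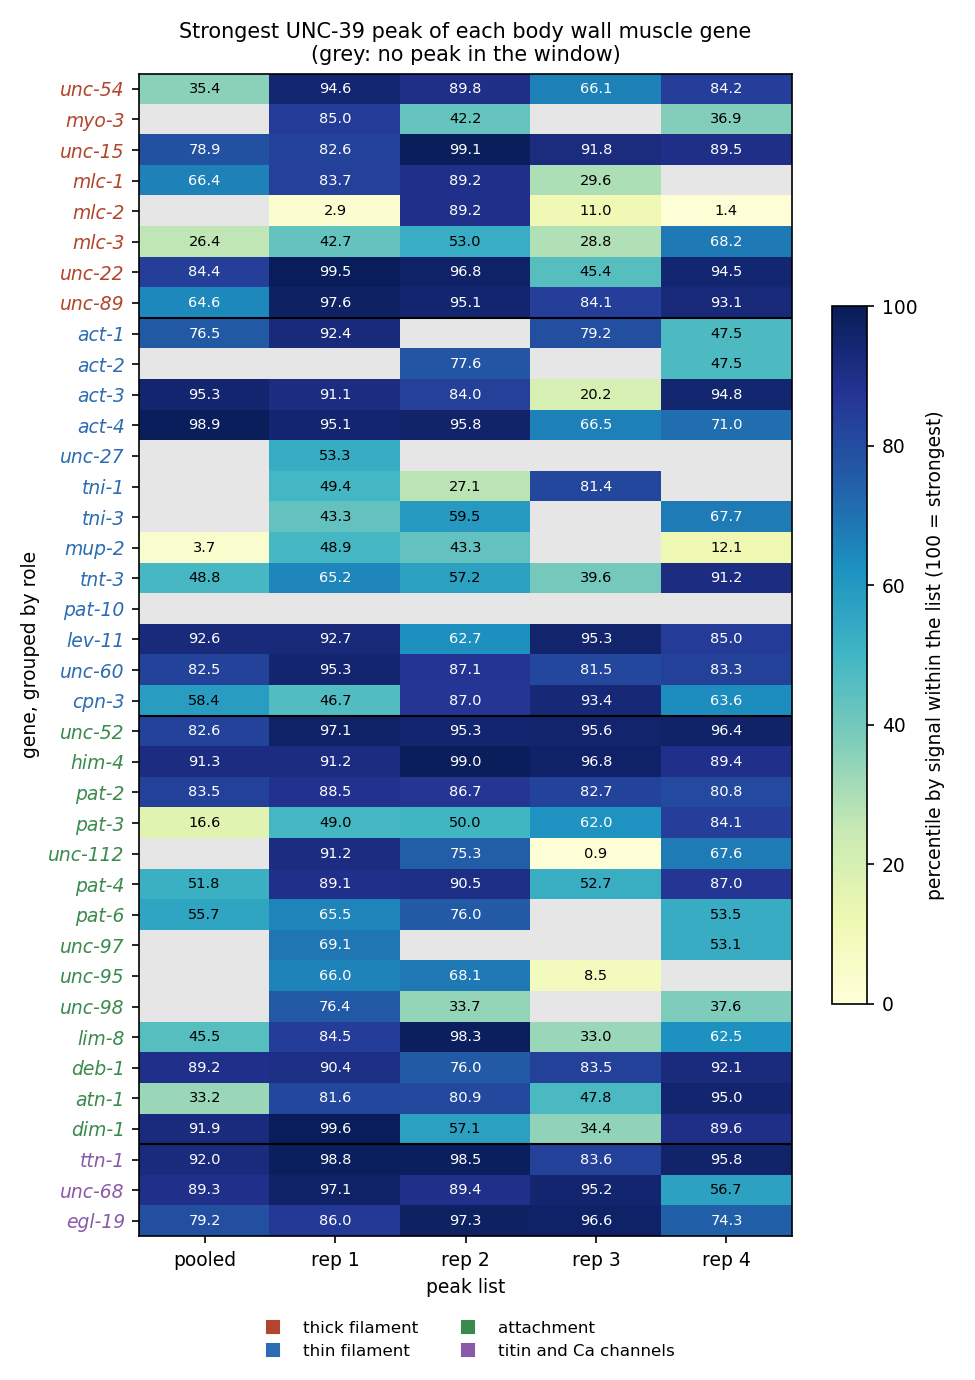
Percentile by signal of the strongest peak in the window of each of the 38 genes (rows, coloured by role) in the pooled list and in replicates 1 to 4 (columns); 100 is the strongest nuclear peak of that list, and grey means that the list has no peak there. pat-10 is grey in every list, and act-4 has the highest pooled value, 98.9.

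The sequences around the summits of the strongest pooled peaks that could be shown are given next, because the values that follow turn on these places. Each run is 101 bases centred on the summit, read from the RefSeq WBcel235 genome on the forward strand. Capitals mark matches to CANNTG, the E-box of basic helix-loop-helix factors such as the worm's myogenic factor HLH-1, and, at him-4 alone, the bases of an annotated tRNA gene.
act-4, chrX:4961766-4961866: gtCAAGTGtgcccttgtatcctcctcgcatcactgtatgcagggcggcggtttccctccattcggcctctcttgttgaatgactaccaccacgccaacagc
act-3, chrV:11075664-11075764: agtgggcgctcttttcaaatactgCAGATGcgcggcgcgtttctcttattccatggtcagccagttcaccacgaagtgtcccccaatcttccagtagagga
ttn-1, chrV:6121717-6121817: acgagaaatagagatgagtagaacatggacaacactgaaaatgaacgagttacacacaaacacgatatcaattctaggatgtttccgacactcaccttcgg
dim-1, chrX:8055183-8055283: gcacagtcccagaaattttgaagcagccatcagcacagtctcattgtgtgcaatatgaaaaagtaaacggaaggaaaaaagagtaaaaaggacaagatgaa
him-4, chrX:9743667-9743767: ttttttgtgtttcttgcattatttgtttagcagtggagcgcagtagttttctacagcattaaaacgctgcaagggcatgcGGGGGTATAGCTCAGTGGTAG
unc-68, chrV:6929166-6929266: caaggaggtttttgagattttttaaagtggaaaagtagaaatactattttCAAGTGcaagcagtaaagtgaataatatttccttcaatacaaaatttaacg
deb-1, chrIV:7088790-7088890: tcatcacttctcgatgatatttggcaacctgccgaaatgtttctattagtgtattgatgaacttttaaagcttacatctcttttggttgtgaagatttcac
Their G and C content differed widely, from 27.7% at unc-68 to 56.4% at act-4 and 52.5% at act-3.

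The thick filament genes gave no pooled peak in the top 10% of the list. Of the 8 genes, 6 had a pooled peak, and their strongest ones had a median percentile of 65.5. The highest was at unc-22, which encodes twitchin, a giant kinase of the A-band, at the 84.4th percentile, in an intron 581 bp from the gene start. This summit was also 533 bp from the start of another gene, ZK617.26. The peak of unc-15, the gene of paramyosin, stood at 78.9 and lay 366 bp upstream of the start, 835 bp from the start of C15A11.2. That of mlc-1, a regulatory myosin light chain, stood at 66.4, in an exon, and that of unc-89, an obscurin-type protein of the M-line, at 64.6 in an intron. Lower values were found at unc-54, the major myosin heavy chain of body wall muscle, with 35.4 in an exon 6562 bp from the start, and at mlc-3, the essential light chain, with 26.4 and a summit inside the upstream gene rpc-2. The unc-54 place was overlapped by a peak in replicate 1 alone. myo-3, the second myosin heavy chain of the same filaments, and mlc-2, a second regulatory light chain, had no pooled peak. Among the replicates, myo-3 had a peak in 3, the highest at 85.0 in replicate 1, and mlc-2 had one in 4. mlc-1 and mlc-2 lie side by side with overlapping windows, and their strongest peak in replicate 2 (percentile 89.2) was 1 peak counted for both.

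The thin filament genes held both the strongest peak of the set and the gene with none at all. Of the 13 genes, 8 had a pooled peak, and the median percentile of the strongest was 79.5. Actin, the polymer of the filament, is made from the genes act-1 to act-4, which are close copies of each other. act-4 ranked 146 in the pooled list, at percentile 98.9 with a signal of 38.1, below the 42.0 of the weakest reproducible nuclear peak. Its summit lay in an intron 1195 bp from the start, and a second intronic peak at 1921 bp stood at percentile 92.0. At the place of the first peak, replicates 1, 2 and 4 had peaks at percentiles of 87.1, 95.8 and 19.9, and replicate 3 had none. Across the whole act-4 window the strongest peaks stood at 95.1, 95.8, 66.5 and 71.0 in replicates 1 to 4, so act-4 ranked high in replicates 1 and 2 and nearer the middle in replicates 3 and 4.

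act-3 ranked 600, at percentile 95.3, with the summit 1216 bp upstream of the start. A peak overlapped this place in all 4 replicates, at percentiles of 71.1, 84.0, 20.2 and 94.8 in replicates 1 to 4. Replicate 3 ranked it far below the other three. The pooled peak of act-1 stood at 76.5, 527 bp upstream, and act-2 had none, though replicate 2 had a peak in its window at 77.6. The windows of act-1 and act-2 overlap, and the peak of both in replicate 4 (percentile 47.5) was the same one. Of all 50-base sequences in the windows, 65.8% in act-1, 89.5% in act-2, 76.3% in act-3 and 98.1% in act-4 occurred once in the nuclear genome, so reads from part of act-1, act-2 and act-3 may not be placed uniquely, and the part of this in their counts was not tested. The strongest pooled peaks of act-1, act-3 and act-4 themselves were made up of such single sequences in 100% of their length.

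The regulatory genes of the thin filament were mostly low or without a pooled peak. lev-11, which encodes tropomyosin, was the exception, ranking 951 at percentile 92.6 with a summit in an intron 5025 bp from the start. At that place peaks were found in replicates 1, 2 and 4 at 92.7, 62.0 and 10.2, and none in replicate 3. In the whole window, replicates 1 to 4 gave 92.7, 62.7, 95.3 and 85.0, so the peak that ranked high in replicate 3 lay elsewhere in the gene. All 3 troponin I genes, unc-27, tni-1 and tni-3, had no pooled peak, and neither did pat-10, the gene of troponin C. Among the replicates, tni-1 and tni-3 each had a peak in 3, the highest at 81.4 (tni-1, replicate 3) and 67.7 (tni-3, replicate 4). Of the troponin T genes, mup-2 had the lowest strongest peak of the set (percentile 3.66), and tnt-3 stood at 48.8, both in exons. pat-10 was the single member without a peak in any of the 5 lists, and unc-27 had one in replicate 1 alone, at percentile 53.3. Their windows were short, at 3576 and 3166 bp, and all of their 50-base sequences occurred once. Of the other actin-binding genes, unc-60, which encodes ADF/cofilin, reached 82.5 at 1089 bp upstream. cpn-3, a calponin-related gene, stood at 58.4, with its summit inside the neighbouring gene aars-2.

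The attachment genes were the most numerous class and had pooled peaks in 10 of 14, with a median percentile of 69.1. Outside the cell, him-4, which encodes hemicentin, ranked 1109 at percentile 91.3. Its summit lay in an intron 26152 bp from the start and 30 bp from a tRNA gene, a second one being within 300 bp. The place was overlapped in all 4 replicates, at percentiles of 76.6, 97.7, 96.8 and 60.9, and in replicate 3 it was also the strongest peak of the gene. Of the 50-base sequences in this peak, 78.4% occurred once in the genome. The capitals in its sequence above are the bases of the nearer tRNA gene. unc-52, the gene of perlecan in the basement membrane, stood at 82.6, and its place was overlapped in all 4 replicates but unevenly, at 94.4, 3.44, 3.86 and 39.0.

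Of the integrin complex, pat-2, the alpha subunit, was the highest at 83.5, with a summit in an exon 54 bp from the start, and its values varied little between replicates (88.5, 86.7, 82.7 and 80.8 for the strongest peak in the window). The place itself was overlapped in replicates 1 and 4 only. pat-3, the beta subunit, stood at 16.6 in an exon. Inside the membrane, pat-4, the integrin-linked kinase, stood at 51.8 and pat-6, parvin, at 55.7, with summits 1652 and 387 bp upstream, the first of them 657 bp from the start of C29F9.8. The kindlin gene unc-112 and the genes unc-97 (PINCH), unc-95 and unc-98 of the same adhesions had no pooled peak. Replicate lists did have peaks in their windows. unc-112 had one in 4 replicates, at 91.2, 75.3, 0.909 and 67.6, unc-95 and unc-98 in 3 each and unc-97 in 2. lim-8, for a LIM-domain protein of M-lines, stood at 45.5. Of the genes named here, pat-2 alone had a high pooled peak.

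At the dense bodies, deb-1, which encodes vinculin, ranked 1382 at percentile 89.2 in an intron, and its place was overlapped in replicates 1 and 2 at 90.4 and 76.0. Over the whole window deb-1 gave 90.4, 76.0, 83.5 and 92.1 in replicates 1 to 4. atn-1, for alpha-actinin, stood at 33.2. dim-1, for an immunoglobulin-domain protein near dense bodies, ranked 1037 at percentile 91.9, in an intron 2987 bp from the start. At this place replicate 1 ranked its peak 126, at percentile 99.6, while replicates 2 and 3 gave 57.1 and 34.1 and replicate 4 had none. In the whole dim-1 window the values were 99.6, 57.1, 34.4 and 89.6, with 1 library far above the other values at the place of the pooled peak.

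Titin and the calcium channels of muscle had long genes with many peaks. ttn-1, for a titin-related giant protein, had a window of 83724 bp, 9 pooled peaks and its strongest at rank 1027 (percentile 92.0), in an intron 80865 bp from the start, near the far end of the gene. That place was overlapped in replicates 2 and 4 at 98.5 and 91.5, and the strongest peaks in the window stood at 98.8, 98.5, 83.6 and 95.8 in replicates 1 to 4. unc-68, the ryanodine receptor of the sarcoplasmic reticulum, had 10 pooled peaks, the strongest at rank 1364 (percentile 89.3) and 178 bp upstream of the start, overlapped in replicates 1 and 2 at 57.8 and 89.4. Its window values were 97.1, 89.4, 95.2 and 56.7, of which replicate 4 was the lowest. egl-19, the L-type calcium channel of muscle, stood at 79.2 in an exon. The members nearest to the top 10% of the pooled list were him-4 on the inner side and unc-68 and deb-1 on the outer, and 6 of 38 genes were inside it, beside 6.40% of all genes. By window length, from shortest to longest class, they were 1 of 14, 2 of 14, 1 of 4 and 2 of 6, beside 4.31%, 8.87%, 15.0% and 27.0% of all genes.

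**Figure D3:**
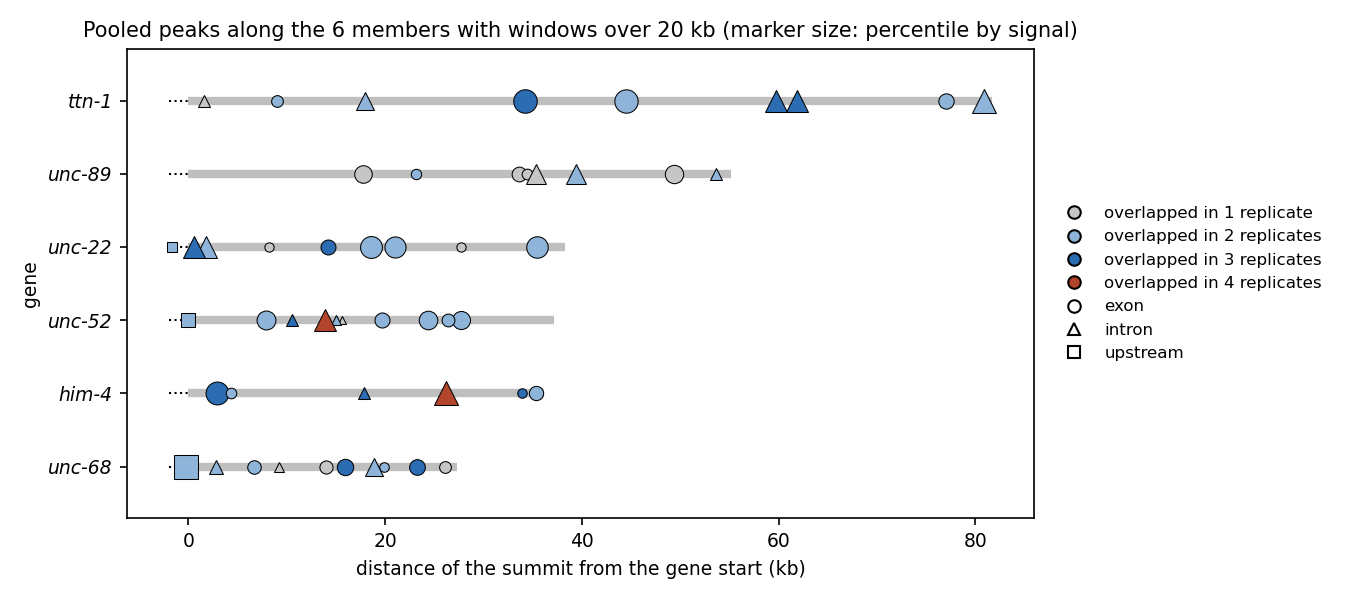
Pooled peaks along the 6 members with windows over 20 kb, by distance of the summit from the gene start in kilobases (horizontal axis); grey bars are the genes and dotted lines the 2 kb upstream. Marker shape gives the position, size the percentile by signal and colour the number of replicates with an overlapping peak; 1 peak in unc-52 and 1 in him-4 were overlapped in all 4.

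In the long genes, peaks lay at many distances from the start, and not evenly in each gene. The 6 genes with windows over 20000 bp (ttn-1, unc-89, unc-22, unc-52, him-4 and unc-68) held 52 of the 88 pooled peaks. In unc-89 all 8 lay between 17721 and 53589 bp from the start, with none in the first part of the gene. In unc-52 the farthest lay at 27739 bp of a gene of 37136 bp. Per 10 kb the pooled peaks ranged from 1.07 in ttn-1 to 3.41 in unc-68, with 1.40 in unc-89, 1.57 in him-4, 2.23 in unc-22 and 2.56 in unc-52. The replicates did not keep this order. In replicate 4 ttn-1 had 3.11 and unc-68 2.04, and him-4 was the highest in replicates 1 and 2, at 6.28 and 5.24. In ttn-1, 87.8% of the 50-base sequences of the window occurred once, and the part of repeats in its pooled density was not tested. The number of peaks followed window length across the 38 genes (Spearman's rho 0.72 in the pooled list and 0.72 to 0.84 in the replicates). Over all 19973 genes rho was 0.34 in the pooled list and 0.34 to 0.46 in the replicates. The sets differ in window length, with medians of 7010 and 4027 bp, and 11019 of all genes tie at no pooled peak, against 11 of the 38. The rho values are therefore not a like comparison. These are descriptions across genes, which share libraries and in part neighbouring sequence. Of the 88 pooled peaks, 44 lay in exons (50%), 31 in introns (35.2%) and 13 upstream (14.8%). Of the bases in these windows, 45.5% were exonic, 39.3% intronic and 15.2% upstream, so the peaks were divided much as the sequence was. Over all genes 33.9% of peaks were in exons, 28.0% in introns and 38.2% upstream, and 28.6%, 33.1% and 38.3% of the bases.

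Thick filament and attachment genes more often had a peak than thin filament genes, and this was not seen per length of sequence. The share of genes with a peak was 93.8% ± 7.22 in thick filament genes, 91.1% ± 8.99 in attachment genes and 75% ± 9.68 in thin filament genes (SD, n = 4 replicates). Thick minus thin was 15.4, 23.1, 26.0 and 10.6 percentage points in replicates 1 to 4, a mean of 18.8 ± 7.04 (exact sign-flip permutation test, two-sided, p = 0.13, adjusted p = 0.188 over 6 class comparisons). Attachment minus thin was 15.4, 15.9, 17.0 and 15.9 points, a mean of 16.1 ± 0.691 (exact permutation p = 0.13, adjusted p = 0.188). Thick minus attachment had a mean of 2.68 ± 6.60 points and both signs (exact permutation p = 0.5, adjusted p = 0.5). The first 2 differences were larger than their spread between replicates and of 1 sign in 4 of 4. With 4 replicates the test cannot go below 0.13, so it could not decide them. The same genes were counted in every replicate, here and per 10 kb below. The SD and the common sign thus describe the lists and do not measure the spread between genes.

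The windows of the classes differed in length, with medians of 9061 bp for thick filament, 7698 bp for attachment and 3584 bp for thin filament genes. Per 10 kb of merged window the order turned round. Thick filament genes had 2.82 ± 1.25 peaks, attachment genes 3.47 ± 1.34 and thin filament genes 3.96 ± 1.37 (SD, n = 4). Thick minus thin was -1.33, -0.79, -0.75 and -1.66 peaks per 10 kb in replicates 1 to 4, a mean of -1.13 ± 0.437 (exact permutation p = 0.13, adjusted p = 0.188). Attachment minus thin had a mean of -0.48 ± 0.277 and was below 0 in 4 of 4 replicates (exact permutation p = 0.13, adjusted p = 0.188). Few genes carried much of the thin filament density. In replicate 4, act-3 held 6 and act-4 held 5 of the 26 thin filament peaks, and the differences without these genes were not computed. Thick minus attachment was -0.65 ± 0.663 (exact permutation p = 0.25, adjusted p = 0.3). The promoter alone (2000 bp before the start and 200 bp after it) gave all windows the same length, but also left out the rest of each gene. There thick minus thin was -0.721 points in the share of genes with a peak (exact permutation p = 1) and attachment minus thin was 8.65 points (exact permutation p = 0.5). With the gene body only these differences were 22.4 and 28.2 points. In windows up to 10 kb, which still differed in length, they were 18.8 and 14.6. The part of window length in the share was not tested apart from the region. In density, attachment minus thin was -0.065 peaks per 10 kb with the promoter alone and -0.080 with replicate lists of equal length (exact permutation p = 0.875 and 0.75), and thick minus thin was -0.71 and -0.70 (exact permutation p = 0.375 and 0.13).

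**Figure D4:**
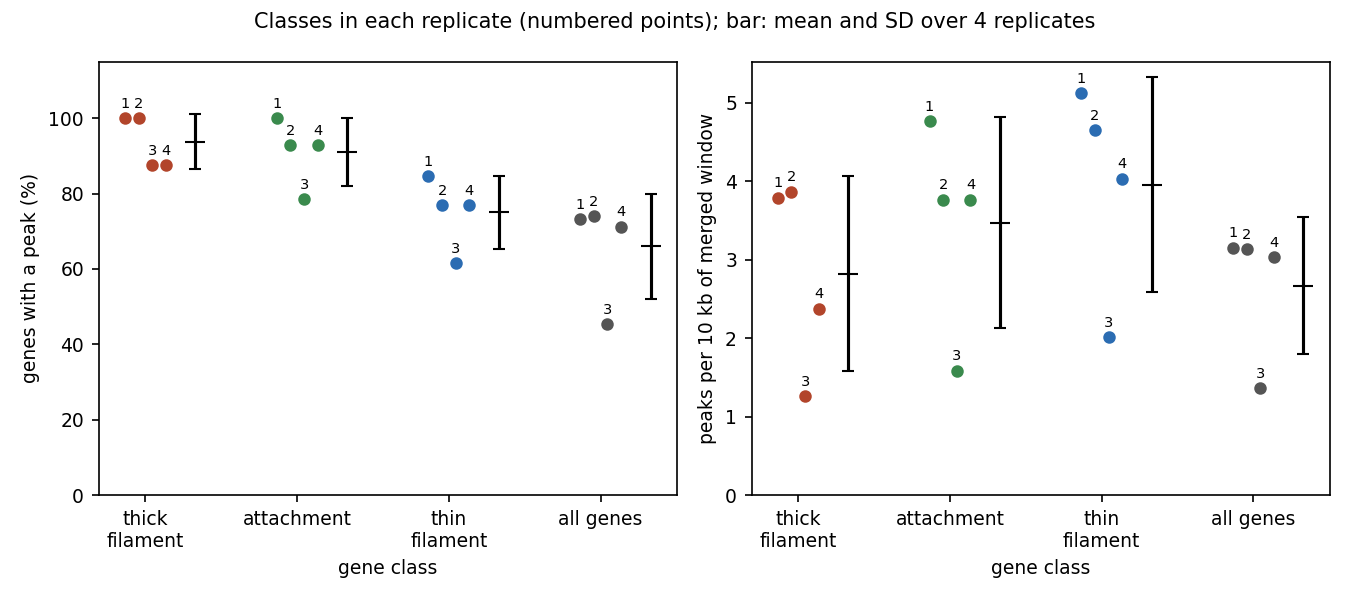
Share of genes with a peak (left, percent) and peaks per 10 kb of merged window (right) for thick filament, attachment and thin filament genes and for all nuclear protein-coding genes. Numbered points are the 4 replicates, and the bar beside them is the mean with SD; thin filament genes are lowest of the 3 classes on the left and highest on the right.

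By position, the strongest peaks of the 27 genes were divided equally among upstream sequence, exons and introns, with 9 in each (33.3%). Over all genes with a pooled peak, 44.5% of the strongest summits were upstream, 32.5% in exons and 23.0% in introns. With the promoter window alone, 13 of 38 muscle genes had a pooled peak, beside 26.2% of all genes.

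The place of a gene's strongest peak often differed between lists, most in replicates 3 and 4. The strongest pooled peak was overlapped by a peak of all 4 replicates in 3 of 27 genes (act-3, unc-52 and him-4; 11.1%), beside 6.53% of all genes with a pooled peak, and by no replicate in 0 of 27, beside 0.916%. By window length the first count was 1 of 7, 0 of 10, 0 of 4 and 2 of 6, beside 6.01%, 6.35%, 8.74% and 10.7%. Without replicate 3 the first count was 6 of 27, beside 21.3% of all genes, and without replicate 2 it was 5, beside 9.97%. Replicate by replicate it was overlapped in 22, 21, 8 and 13 of 27 genes, where all genes gave 71.2%, 74.4%, 24.9% and 45.8%. The replicate's own strongest peak was at the pooled place in 13, 14, 6 and 5 of 27 genes, beside 48.8%, 51.6%, 19.6% and 29.3% of all genes with a pooled peak. It was there in all 4 replicates at once in 0 of 27, beside 1.76%. These counts were near the shares over all genes. For act-3, mlc-3 and cpn-3 it was so in 3 replicates, and for 4 genes in none. The pooled list was made from the same libraries, so this overlap is not independent support.

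Other genes of body wall muscle also had a pooled peak in most cases, and none in the top 10% of the list. Of 51 such genes, taken from a list of regulators, receptors, channels, assembly factors and matrix proteins, 34 had a pooled peak (66.7%), beside 44.8% of all genes, in windows with a median of 8577 bp. In replicates 1 to 4 the numbers were 46, 48, 34 and 48, or 90.2%, 94.1%, 66.7% and 94.1%, beside 73.3%, 74.0%, 45.3% and 71.2% of all genes. Of all genes with windows of 5000 to 10000 bp, the class of that median, 58.6% had a pooled peak. In replicates 1 to 4 that class gave 85.7%, 86.8%, 59.3% and 85.7%, so the differences were smaller at like length. The 51 genes were not divided by window length. Their strongest pooled peaks had a median percentile of 66.6, the highest being 89.6. Thus 0 of 51 were in the top 10% of the list, beside 6.40% of all genes. A reproducible peak was found in 0 of 51, beside 0.436% of all genes. Of 8 genes of pharyngeal muscle, a feeding organ with its own myosins, 4 had a pooled peak (50%), beside 44.8% of all genes. In replicates 1 to 4 it was 6, 6, 3 and 7 of 8, so replicate 3 (37.5%) was below the 45.3% of all genes. The top 10% held 2 of the 8, myo-1, a pharyngeal myosin heavy chain, at 92.3 and pha-4, the organ identity factor of the pharynx, at 90.6. Over all genes it held 15.0% and 8.87% for the window length classes of these 2.

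Of the short sequence motifs searched, the E-box was near its share over all pooled summits, and the others, rare over all of them, were not found. Within 50 bp of the 27 strongest summits and on both strands, the sites TCAGGTTTC and TGATAC, both sought as sites of this homeodomain family, occurred at 0, where 0.0939% and 3.32% of all 12773 nuclear pooled summits held them. CGTCTC occurred at 0, beside 5.40%. CANNTG, the E-box marked in the sequences above, occurred at 10 of 27 (37.0%), beside 36.4% of all pooled summits. The median G and C content was 43.6% at the muscle gene summits and 40.6% at all pooled summits. A match is a run of letters and not a site, and its absence says only that these letters are not in this window.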

How the data were processed

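Only the peak lists on the ce11 assembly were used, since no gene annotation of ce10 was at hand. Per the deposited README files, each replicate has a list of peaks and background made with a control, and the pooled list and the thresholded list were made from all 4 replicates. The signal of each peak is the value the authors deposited. The q-value column, deposited without a stated scale, was read as −log10 of q. The aligner, the peak caller, their versions and the threshold were not given by any source at hand, and the lists carry no read numbers from which depth could be had. Peak ends were checked against the WBcel235 chromosomes, and 0 nuclear peaks ended beyond them.

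Genes came from Ensembl release 115. Python 3.11.15, numpy 2.4.6, pandas 2.3.3 and scipy 1.17.1 were used. A peak was assigned to every window that held its summit, overlap needed at least 1 bp, and mitochondrial peaks were left out. The assignment was tested on planted peaks. Classes were compared with exact two-sided sign-flip permutation tests over the 4 replicates, adjusted by Benjamini-Hochberg over 6 comparisons. The labels call the replicates biological. All members are accounted for, and values in every list are given for the 8 with the highest pooled percentile, a rule that applied because fewer than 8 were in the top 10%; further per-replicate values were added after they were seen. The members and lists were chosen with earlier results of these data known. Of 52 names of other body wall muscle genes, 1 was not in the annotation.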

Additional observations from a re-analysis of the deposited data

Results flagged for a closer look

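In 25 sets of 4 replicate values, the lowest or highest replicate was set against the other three, and 2 sets had a value that stood apart. Chance flags about 1 in 20 such sets. The median percentile of the strongest peaks of the thick filament genes was 45.4 in replicate 3, against 84.2 to 89.5 in the other three. The strongest peak in the act-3 window stood at percentile 20.2 in replicate 3, against 84.0 to 94.8 in the others. Both values come from replicate 3, whose list held 13195 nuclear peaks; the part of list length in them was not tested.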

How the results depend on the processing

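The number of muscle genes with a pooled peak (27 of 38) was 13 with the promoter alone and 17 with the 5000 strongest peaks (beside 21.6% of all genes). It was 0 with a q-value under 0.05, which only 0.352% of all nuclear pooled peaks had. In windows up to 10 kb, chosen after seeing the data, it was 17 of 28, beside 42.1% of all genes. With the 5000 strongest peaks the mean over replicates was 17.8 against 33. No share over all genes was computed for this mean. A shorter list gives any gene fewer chances of a peak, so the fall is not a result about these genes. The median percentile in the pooled list (78.9) was 58.4 with the promoter alone and 66.4 without windows over 20 kb. In windows up to 10 kb it was 58.4. The mean over replicates (79.6) was 59.8 with the promoter alone and 69.2 in windows up to 10 kb. With each peak given to the nearest start, also chosen after seeing the data, it was 67.4. With the 5000 strongest peaks the percentiles were ranked anew within the cut lists. They gave 60.1 in the pooled list and 52.97 over replicates, which cannot be set against 78.9 and 79.6. The 60.1 is that of the unc-22 peak, which stood at 84.4 in the full pooled list.

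Of the class differences, the share for thick minus thin (18.8 points) reversed with the promoter alone, at -0.721. Thick minus attachment in share (2.68 points) reversed with the gene body only (-5.80), the promoter alone (-9.38) and lists of equal length (-5.36). In density (-0.65) it reversed in windows up to 10 kb (0.111). Leaving out 1 replicate in turn left these 6 differences in their direction. The count of strongest peaks overlapped in every replicate (3) was 1 when 50% of the peak had to be covered (beside 3.45% of all genes) and 3 to 6 without 1 replicate in turn. With the 1000 strongest pooled peaks, 3 genes had one (act-3, act-4 and lev-11), beside 5.13% of all genes. With a q-value under 0.05, percentiles and class differences could not be had, since replicate 2 has 0 such peaks. No pairing of samples between groups was possible because there was 1 group. The class differences were taken within each replicate. The causes were not tested. Depth was unknown, so no count here shows that a gene lacks binding.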
